A study of Mus musculus with 6 samples.

Results

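Oocytes are the germ cells that granulosa cells surround and nourish in the ovarian follicle, and a granulosa cell preparation also carries some oocyte RNA. Described here are 34 genes whose RNA is made mainly by the oocyte, of 49315 genes counted. They were chosen by name, with earlier results of these data known and no measured value in the rule, and all 34 matched 1 gene identifier by symbol. RNA was sequenced with paired-end reads from granulosa cells freshly taken from ovaries of mice aged 8 to 9 weeks, all labelled C57BL/6J. There were 3 libraries labelled Jmjd3 knockout (KO) and 3 labelled wild type (WT), and the series describes the knockout of Jmjd3, also named Kdm6b, as specific to granulosa cells. What drives the deletion, which exons it removes, the cycle stage and whether hormones were given could not be learned from the labels. No label ties a replicate to an animal of its own. The p-values therefore reflect the spread among these libraries alone, and that spread may be technical.

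A growing oocyte builds the zona pellucida, the coat that sperm later bind, and secretes growth factors of the TGF-beta family that act on the granulosa cells around it. Transcription factors such as FIGLA and NOBOX drive many of these genes. Toward the end of growth the oocyte also stores proteins and dormant RNAs that serve meiotic maturation and the first divisions of the embryo. In the mouse ovary the members therefore cover the primordial oocyte, the growing oocyte and the full-grown oocyte. The question asked of them was whether all follow 1 oocyte share of the RNA or whether some differ.

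Gene counts summed to between 42379018 and 49901493 per library, and 1 CPM (a share of the TMM-adjusted library size) stood for 42.5 to 51.4 counts. Kdm6b, the targeted gene, had 64.7, 68.6 and 112 CPM in the libraries labelled KO, replicates 1 to 3, against 72.8, 66.3 and 66.2 CPM in those labelled WT. Its count over all exons was thus not lower in KO (0.26 ± 0.22 SE on log2, adjusted p = 0.755, edgeR) and did not check the labels, so KO and WT below are the labels of the libraries. All 14 granulosa cell markers were detected, with between 20712 and 28242 summed CPM in KO and between 17863 and 20965 in WT. Of these 1 passed, Amhr2, the receptor of anti-Müllerian hormone, which had 141, 127 and 130 CPM in KO and 240, 268 and 293 CPM in WT (-1.01 ± 0.09 SE on log2, adjusted p = 0.00212, edgeR). Of 8 male germ cell genes, 7, among them Prm1, Prm2, Tnp1, Tnp2 and Acrv1, had at most 9 counts in any library. The eighth, Tssk6, had 81, 75 and 44 counts in KO and 72, 64 and 68 counts in WT.

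On GRCm38, as the count files give positions, the members lie on 15 chromosomes, with 5 on chromosome 7 and 4 on chromosome 9, and each value sums the gene's exons. Among those described most fully below, the zona genes are Zp1 at chr19:10914287-10920632, Zp2 at chr7:120126772-120145291 and Zp3 at chr5:135980099-135988624. The growth factors are Gdf9 at chr11:53431023-53437904 and Bmp15 at chrX:6314107-6320721. Of the maternal complex, Zbed3 at chr13:95325237-95337841, Padi6 at chr4:140727355-140742643 and Nlrp5 at chr7:23385889-23441922 recur below, as do Astl at chr2:127338639-127357651 and Ddx4 at chr13:112598333-112652310. The loci of 6 members overlap another annotated gene: Nlrp5, Khdc3, Zbed3, Nlrp9b and Cpeb1 overlap small RNA genes, pseudogenes or predicted genes, and Btg4 overlaps Layn and others on the opposite strand.

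Some members regulate others, so the promoters were searched for their elements. FIGLA binds the E-box, searched here as CANNTG, and NOBOX binds short elements searched as TAATTG, or as TAATTA, or else as TAGTTG, each on both strands. Promoter sequences were found in RefSeq (GRCm38.p6) for 25 of 34 members, and the 250 bases before the start were searched. Zp1, Zp2, Gdf9, Dppa3, Npm2, Mos, Nlrp14, H1foo and Bcl2l10 had no entry. An E-box was present in 23 of the 25 (92%), where 66.2% of 32851 promoters held one. A NOBOX element was present in 5 of the 25 (20%), where 16.1% of all promoters held one. By their letters an E-box and a NOBOX element, as searched, cannot overlap. These matches are descriptions of letters and not binding sites. The windows of 4 members are shown because their levels define the patterns below: Zp3 with the zona genes, Bmp15 and Nlrp5 with the members that varied most, and Padi6 with the least variable one. Capitals mark E-boxes and NOBOX elements, read 5′ to 3′ on the gene's strand. Zp3 lies at chr5:135979855-135980104 (plus strand), Bmp15 at chrX:6320725-6320974 (minus strand), Nlrp5 at chr7:23385639-23385888 (plus strand, the first of 2 starts that RefSeq lists) and Padi6 at chr4:140742644-140742893 (minus strand).
Zp3: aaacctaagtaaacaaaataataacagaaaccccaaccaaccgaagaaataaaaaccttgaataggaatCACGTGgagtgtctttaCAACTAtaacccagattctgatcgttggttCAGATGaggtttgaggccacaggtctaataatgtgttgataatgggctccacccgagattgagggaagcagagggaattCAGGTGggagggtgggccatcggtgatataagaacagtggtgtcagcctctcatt
Bmp15: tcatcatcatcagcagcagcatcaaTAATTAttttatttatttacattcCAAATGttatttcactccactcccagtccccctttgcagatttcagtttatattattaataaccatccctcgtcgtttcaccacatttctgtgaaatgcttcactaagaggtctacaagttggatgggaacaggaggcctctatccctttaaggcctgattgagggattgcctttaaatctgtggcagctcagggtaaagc
Nlrp5: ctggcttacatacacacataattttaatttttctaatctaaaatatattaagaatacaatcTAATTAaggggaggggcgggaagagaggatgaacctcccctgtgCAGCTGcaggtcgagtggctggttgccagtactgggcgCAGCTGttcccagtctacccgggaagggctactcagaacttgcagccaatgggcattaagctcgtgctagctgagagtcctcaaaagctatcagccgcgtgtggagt
Padi6: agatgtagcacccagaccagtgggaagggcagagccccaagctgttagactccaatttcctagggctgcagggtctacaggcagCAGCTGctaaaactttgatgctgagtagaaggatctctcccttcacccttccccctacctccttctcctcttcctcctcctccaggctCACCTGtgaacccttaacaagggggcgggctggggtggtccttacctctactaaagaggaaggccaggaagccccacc
The Zp3 window held 3 E-boxes and 1 NOBOX element, the Nlrp5 window 2 and 1, the Bmp15 window 1 and 1, and the Padi6 window 2 E-boxes with 0 NOBOX elements.

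The 34 oocyte genes together took 0.154%, 0.159% and 0.178% of all gene counts in KO replicates 1 to 3, against 0.192%, 0.193% and 0.243% in WT replicates 1 to 3. The means were 0.164% ± 0.0125 in KO and 0.209% ± 0.0294 in WT (SD, n = 3 each). All 3 libraries labelled KO were below all 3 WT libraries, with the smallest gap between KO replicate 3 and WT replicate 1. The widest half-width of the 95% Wilson intervals was 0.00138 percentage points, which covers counting error only. Depth was therefore not what limited the comparison. No test was made of this sum, since it is a score over chosen genes. In bulk RNA, fewer oocytes and less RNA per oocyte cannot be told apart.

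**Figure D1:**
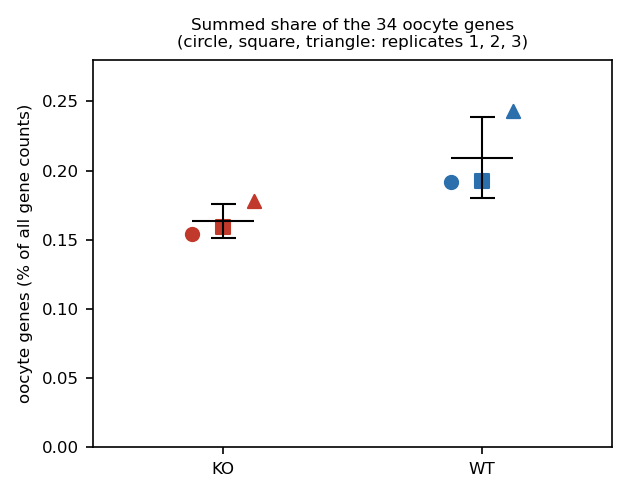
Summed counts of the 34 oocyte genes as a percentage of all gene counts (vertical axis) in KO and WT libraries, with 1 symbol per library and bars for mean ± SD (n = 3). The KO libraries lie between 0.154% and 0.178%, below the WT libraries at 0.192% to 0.243%.

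Markers of other cells also differed between the libraries. Summed over 7 red blood cell genes, the level was 2260, 1339 and 830 CPM in KO replicates 1 to 3 and 383, 727 and 798 CPM in WT replicates 1 to 3. Over 8 luteal genes it was 19485, 13985 and 10946 CPM in KO and 11248, 9113 and 10226 CPM in WT. None of the genes in these lists was at 0. All 7 and all 8 had positive log2 fold changes. In the red blood cell list 1 of 7 passed the test, Slc4a1, and in the luteal list 0 of 8 passed. KO replicates 1 and 2, the libraries with the lowest oocyte share, had the highest luteal and red blood cell sums. The ovarian surface and oviduct epithelium list, which was lowest in KO replicate 3, had 370 to 506 CPM in KO and 507 to 643 CPM in WT, and 0 of its 8 genes passed. All 8 had negative log2 fold changes, with a median of -0.39, the sign of the oocyte genes. The 7 cumulus genes summed to 1484, 1586 and 1786 CPM in KO and 1534, 1681 and 1522 CPM in WT. The 7 endothelium genes summed to 226, 161 and 109 CPM in KO and 151, 122 and 147 CPM in WT. The 6 theca genes summed to 403, 270 and 287 CPM in KO and 174, 233 and 164 CPM in WT. The 7 immune genes summed to 190, 147 and 102 CPM in KO and 129, 141 and 167 CPM in WT. In that order 5 of 7, 7 of 7, 2 of 6 and 5 of 7 had positive log2 fold changes, and 0 passed. The part of these cells in the oocyte result was not tested.

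Each member was tested with edgeR's quasi-likelihood test in a fit over 18250 genes, with Benjamini-Hochberg adjustment over all of them. All 34 members passed the low count filter. None passed at an adjusted p under 0.05, where 0.219% of all tested genes did (0.0932% lower in KO, 0.126% higher). At an unadjusted p under 0.05 there were 16 members, all lower in KO, where 9.16% of all genes passed in either direction and 4.51% lower in KO. DESeq2 called 1 member, Astl (adjusted p = 0.0243), where it called 1.21% of all genes. With limma-voom 0 members were called, where 0.395% of all genes were. Without the low count filter edgeR called Zp2, Gdf9, Dppa3 and Astl, where 0.617% of all genes were called. Without KO replicate 3 it called Zp3 (adjusted p = 0.0254), where 2.26% of all genes were called. The log2 fold change was negative in 33 of 34 members, where 49.1% of all tested genes were negative. Its median over the members was -0.27, with extremes of -0.52 (Astl) and 0.34 (Sohlh2), beside a median of 0.00 over all tested genes. The KO libraries all lay below the WT libraries in 9 members (Padi6, Gdf9, Zp2, Zp3, Zar1, Ooep, Dppa3, Astl and Ybx2), where 7.89% of all tested genes did the same. WT replicate 3 was the highest library in 32 of 34 members, and KO replicate 1 or 2 was the lowest in 31. Without WT replicate 3 the median over the members was -0.17, and without KO replicate 3 it was -0.35.

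**Figure D2:**
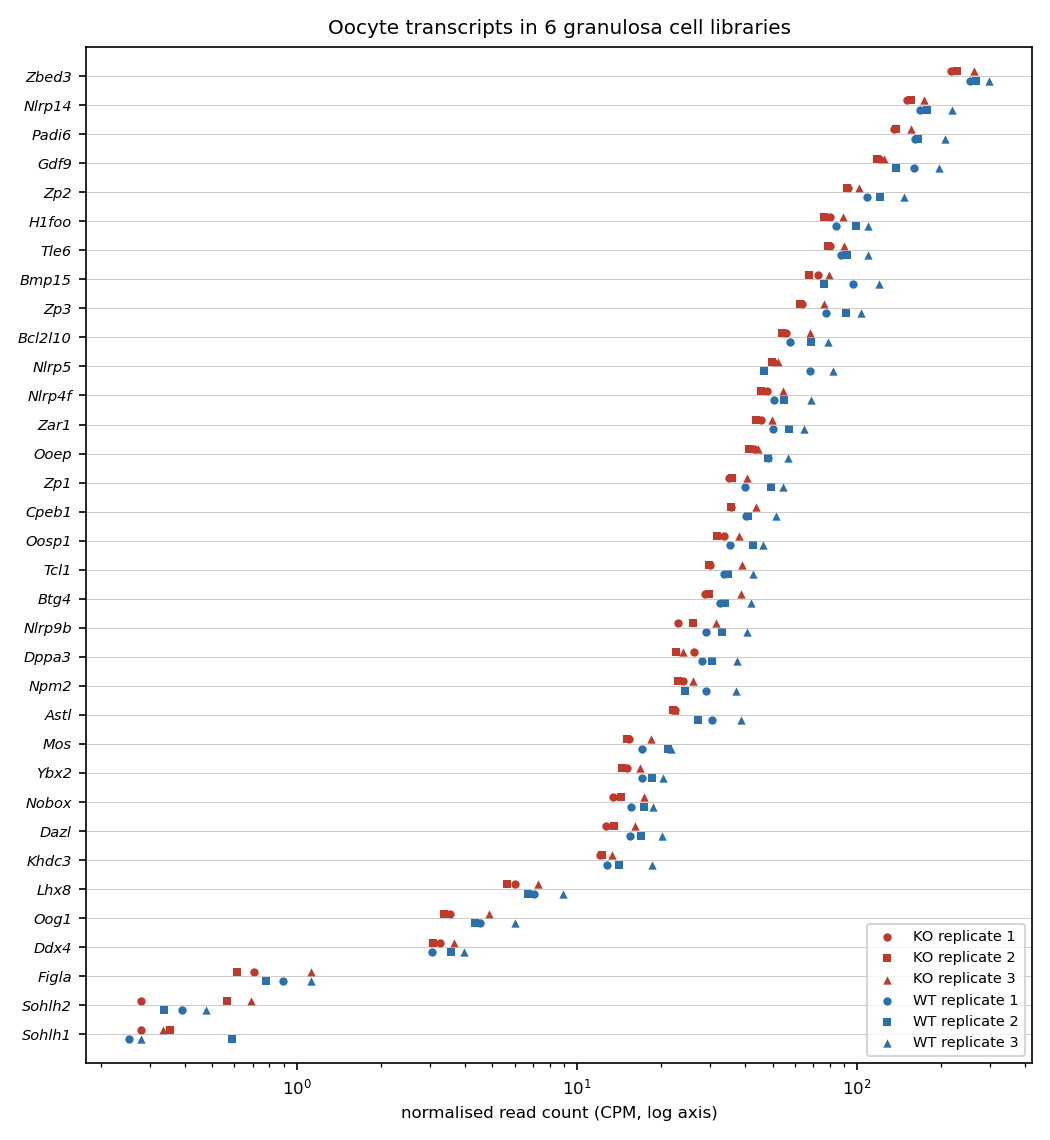
Normalised read counts (CPM, log axis) of the 34 oocyte genes in each library, with KO in red above WT in blue on each line and symbols for replicates 1 to 3. In 32 of 34 genes the highest point is WT replicate 3, and the levels span 0.35 to 254 CPM as means over 6 libraries.

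The genes of the early oocyte include its germline transcription factors and RNA-binding proteins. Nobox, a homeobox factor needed for follicles to leave the primordial stage, had 13.5, 14.3 and 17.4 CPM in KO replicates 1 to 3, against 15.6, 17.4 and 18.8 CPM in WT replicates 1 to 3. The groups overlapped through KO replicate 3 (log2 fold change -0.19 ± 0.12 SE, adjusted p = 0.647, edgeR). Ddx4, the RNA helicase that marks germ cells, had 3.24, 3.06 and 3.65 CPM in KO and 3.04, 3.55 and 3.97 CPM in WT. The Ddx4 ranges overlapped, and its log2 fold change of -0.08 ± 0.16 (SE) was the one nearest to 0 (adjusted p = 0.907, edgeR). Dazl, an RNA-binding regulator of translation in germ cells, averaged 14.2 ± 1.81 CPM in KO and 17.5 ± 2.35 CPM in WT. Lhx8, a LIM homeobox factor of the primordial oocyte, averaged 6.31 ± 0.848 CPM in KO and 7.55 ± 1.18 CPM in WT (SD, n = 3 each). Figla, Sohlh1 and Sohlh2, basic helix-loop-helix factors of the earliest oocytes, stood under 1 CPM on average. At 13 to 57 counts per library their fold changes were imprecise, with SE of 0.28 to 0.39. Sohlh2, the 1 member with a positive log2 fold change (0.34 ± 0.36 SE, adjusted p = 0.797, edgeR), had 0.277, 0.565 and 0.685 CPM in KO and 0.389, 0.336 and 0.476 CPM in WT, with KO replicate 1 below all WT libraries. The median log2 fold change of the 7 genes was -0.20, the value of Figla.

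The zona pellucida genes encode the glycoproteins of the egg coat. Zp2, which binds sperm in mouse, had 92.9, 92.4 and 102 CPM in KO replicates 1 to 3, against 109, 121 and 148 CPM in WT replicates 1 to 3. The 2 groups did not overlap, but the difference did not pass (-0.39 ± 0.11 SE, adjusted p = 0.312, edgeR). Zp3, its partner in the coat, had 63.7, 62.4 and 76.2 CPM in KO and 77.4, 91.1 and 104 CPM in WT. KO replicate 3 lay just below WT replicate 1 (-0.43 ± 0.12 SE, adjusted p = 0.328, edgeR). Zp1, which cross-links the filaments of the coat, averaged 37.2 ± 3.09 CPM in KO and 47.8 ± 7.46 CPM in WT (SD, n = 3 each), and WT replicate 1 at 39.8 CPM lay below KO replicate 3 at 40.7 CPM. The median log2 fold change of the 3 was -0.39.

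Gdf9 and Bmp15 are the growth factors through which the oocyte acts on its granulosa cells. Gdf9 had 120, 118 and 125 CPM in KO replicates 1 to 3, against 160, 139 and 197 CPM in WT replicates 1 to 3. The KO libraries lay close together while the WT libraries spread widely (SD 3.57 in KO and 29.4 in WT), and the groups did not overlap (-0.45 ± 0.12 SE, adjusted p = 0.283, edgeR). Bmp15 had 72.8, 67.7 and 79.8 CPM in KO and 96.6, 76.2 and 120 CPM in WT. WT replicate 2 lay below KO replicate 3 (-0.41 ± 0.16 SE, adjusted p = 0.51, edgeR). Oosp1, an oocyte-secreted protein gene, averaged 34.5 ± 3.20 CPM in KO and 41.5 ± 5.60 CPM in WT (SD, n = 3 each).

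The subcortical maternal complex is an assembly of proteins under the oocyte's surface that the early embryo needs. Zbed3, one of its members, was the highest of all 34 genes and gave 13.6% of their counts. It had 217, 228 and 263 CPM in KO replicates 1 to 3, against 253, 266 and 296 CPM in WT replicates 1 to 3. KO replicate 3 lay above WT replicate 1 (-0.21 ± 0.10 SE, adjusted p = 0.572, edgeR). Padi6, a peptidylarginine deiminase of the oocyte's cytoplasmic lattices, had 136, 138 and 156 CPM in KO and 161, 165 and 206 CPM in WT, without overlap (-0.31 ± 0.11 SE, adjusted p = 0.429, edgeR). Nlrp5, also named Mater, had 50.2, 49.6 and 52.4 CPM in KO and 68.1, 46.6 and 82.0 CPM in WT. WT replicate 2 was the lowest of all 6 libraries for Nlrp5, while WT replicates 1 and 3 were the highest. Ooep (42.8 ± 1.68 CPM in KO, 51.1 ± 4.92 CPM in WT) and Tle6 (82.9 ± 5.97 CPM in KO, 96.5 ± 11.4 CPM in WT) are core parts of the complex. Khdc3 and Nlrp4f had log2 fold changes of -0.27 and -0.24, and the median of the 7 genes was -0.25. Nlrp4f and Nlrp9b have near copies elsewhere in the genome, and reads may have been split among them, which leaves both uncertain.

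Of the other NLRP genes, Nlrp14, needed in mouse for embryos to pass the first divisions, had 152, 156 and 173 CPM in KO replicates 1 to 3, against 168, 178 and 218 CPM in WT replicates 1 to 3 (-0.23 ± 0.10 SE, adjusted p = 0.557, edgeR). Only KO replicate 3 reached into the WT range. Nlrp9b averaged 26.9 ± 4.29 CPM in KO and 34.2 ± 5.94 CPM in WT (SD, n = 3 each).

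Among the maternal chromatin and early embryo factors, H1foo encodes the oocyte linker histone. H1foo had 80.2, 76.5 and 89.4 CPM in KO replicates 1 to 3, against 84.2, 99.0 and 110 CPM in WT replicates 1 to 3 (-0.25 ± 0.10 SE, adjusted p = 0.505, edgeR). WT replicate 1 lay between the KO libraries. Dppa3, which protects the maternal genome from demethylation after fertilization, averaged 24.2 ± 1.80 CPM in KO and 31.8 ± 4.86 CPM in WT without overlap. Zar1, an RNA-binding maternal effect factor, averaged 46.3 ± 3.17 CPM in KO and 57.3 ± 7.31 CPM in WT, also without overlap. Npm2, a histone chaperone, averaged 24.3 ± 1.48 CPM in KO and 30.1 ± 6.31 CPM in WT (SD, n = 3 each), with WT replicate 2 inside the KO range. The median log2 fold change of the 4 was -0.31.

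The genes of RNA storage and meiotic maturation had a median of -0.24. Cpeb1, which holds stored messages silent until maturation, had 35.4, 35.6 and 43.7 CPM in KO replicates 1 to 3, against 40.2, 40.9 and 51.6 CPM in WT replicates 1 to 3 (-0.21 ± 0.12 SE, adjusted p = 0.638, edgeR). Btg4, an adaptor for the removal of maternal RNA, had 28.8, 29.6 and 38.5 CPM in KO and 32.5, 33.9 and 41.9 CPM in WT (-0.16 ± 0.14 SE, adjusted p = 0.749, edgeR). In both genes KO replicate 3 lay above WT replicate 1. Btg4 overlaps Layn on the other strand, and the strand setting of the counting is not given, so its value is uncertain. Mos, the kinase that holds the egg in meiotic metaphase, averaged 16.3 ± 1.86 CPM in KO and 20.0 ± 2.48 CPM in WT. Ybx2, a protein that packages stored RNA, averaged 15.5 ± 1.17 CPM in KO and 18.6 ± 1.58 CPM in WT (SD, n = 3 each), without overlap.

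The remaining 4 members held the lowest fold change of all. Astl encodes ovastacin, the protease that cleaves ZP2 after fertilization. Its level was 22.5, 22.0 and 22.4 CPM in KO replicates 1 to 3, against 30.4, 27.1 and 38.6 CPM in WT replicates 1 to 3. The KO values nearly coincided and none reached the WT range (-0.52 ± 0.12 SE, 95% confidence interval -0.80 to -0.25, adjusted p = 0.218, edgeR). Bcl2l10, a BCL2 family gene of oocytes, had 56.1, 54.0 and 68.3 CPM in KO and 57.5, 68.7 and 78.8 CPM in WT (-0.20 ± 0.13 SE, adjusted p = 0.674, edgeR). Tcl1, a cofactor of the kinase AKT, had 29.8, 29.7 and 39.0 CPM in KO and 33.5, 34.8 and 42.7 CPM in WT (-0.17 ± 0.13 SE, adjusted p = 0.721, edgeR). For both, KO replicate 3 stood with the WT libraries. Oog1 and Tcl1 belong to multigene families whose reads may be mixed, and both are uncertain. Oog1 averaged 3.93 ± 0.828 CPM in KO and 4.96 ± 0.929 CPM in WT (SD, n = 3 each).

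Per length of exon, the order of levels was led by Zbed3 at 125 ± 12.6 RPKM in KO and 144 ± 11.7 RPKM in WT (RPKM is CPM per kilobase of exon, SD, n = 3 each). H1foo followed at 68.3 ± 5.56 RPKM in KO and 81.4 ± 10.8 RPKM in WT, then Gdf9 (59.4 ± 1.76 RPKM in KO, 81.3 ± 14.5 RPKM in WT) and Padi6 (56.5 ± 4.40 RPKM in KO, 70.0 ± 9.77 RPKM in WT). The ranges of H1foo, Gdf9, Padi6 and Zp3 (51.0 ± 5.75 RPKM in KO, 68.6 ± 9.90 RPKM in WT) overlapped within their SD in WT, so their order there is not settled. At the low end, Ddx4 stood at 1.17 ± 0.107 RPKM in KO and 1.23 ± 0.164 RPKM in WT. Sohlh2 was lowest, with 0.215 ± 0.0887 RPKM in KO and 0.169 ± 0.0299 RPKM in WT.

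To ask whether all members follow 1 oocyte share, each library was given an oocyte size factor, the median over the 31 members averaging 1 CPM or more of the count divided by its geometric mean over libraries. On log2, this factor relative to library size was -0.20, -0.22 and 0.01 in KO replicates 1 to 3, against -0.02, 0.06 and 0.36 in WT replicates 1 to 3, a difference of -0.27. KO replicate 3 thus held slightly more than WT replicate 1 by this measure. A like factor came from those of 40 other oocyte genes that averaged 1 CPM or more, all but Mov10l1 and Sycp3. It was -0.17, -0.22 and 0.03 in KO and -0.06, 0.09 and 0.33 in WT. Both sets of genes placed WT replicate 3 highest, and KO replicates 1 and 2 lowest.

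Once divided by the oocyte size factor, the members varied little. For the 31 genes, the SD over 6 libraries had a median of 0.08 on log2 after the division, and of 0.22 before it, and it was smaller after the division in 31 of 31. This is partly built in, since the factor comes from the same genes. In the 40 other oocyte genes, with the factor still taken from the members, the median SD was 0.10 after the division and 0.23 before it, and it was smaller in 36. Before the division, the median SD of the 14380 tested genes with at least 1 CPM was 0.13. Padi6 varied least, at 0.03 on log2, with deviations between -0.03 and 0.04 in the 6 libraries. The SD was under 0.1 in 23 of the 31. The SD that counting alone would give had a median of 0.03 over the 34 members, and 16 of the 34 members had an SD under 2 times their own counting SD.

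**Figure D3:**
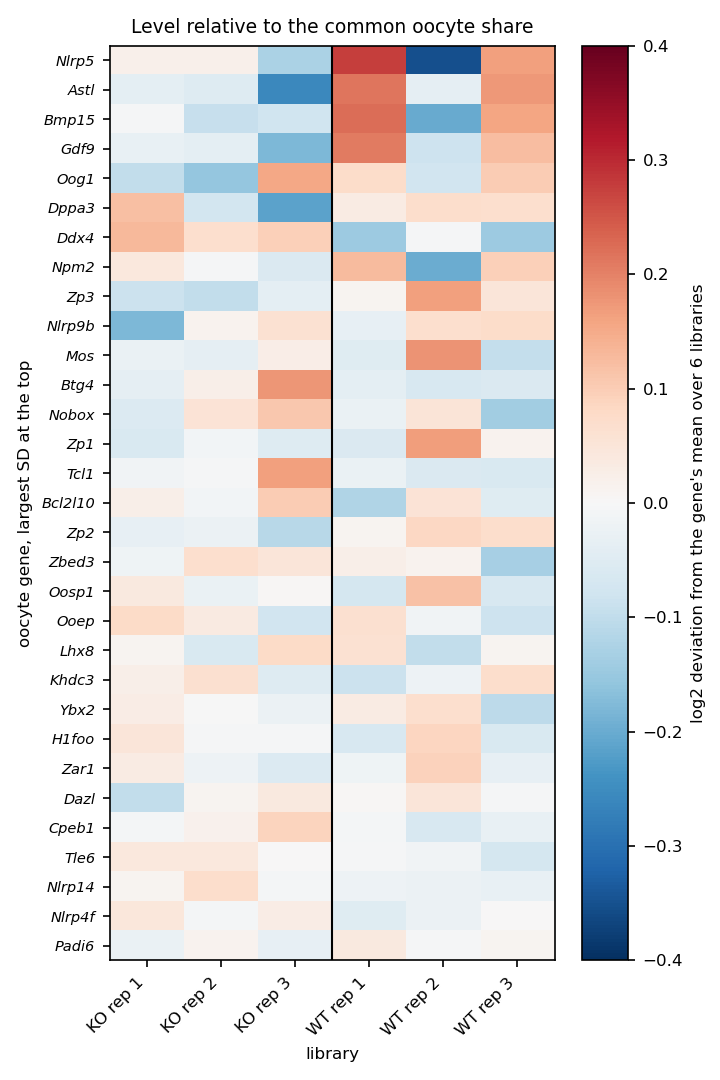
Levels of the 31 oocyte genes averaging 1 CPM or more relative to the oocyte size factor (colour, log2 deviation from each gene's mean over the 6 libraries), with KO libraries left of WT libraries and the most variable genes at the top. Most squares are pale, while Nlrp5, Astl, Bmp15 and Gdf9 are red in WT replicates 1 and 3.

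On this oocyte scale no member passed, in a fit of the same kind over 18250 genes in which 3.48% of all genes were called. None was under an unadjusted p of 0.05 either, where 20.3% of all genes were. DESeq2 and limma-voom called 0 members, where they called 1.57% and 37.6% of all genes. Among the 31 genes the log2 fold changes lay between -0.24 (Astl) and 0.19 (Ddx4), with SE of 0.18 to 0.25, so departures within the 95% intervals, which reached -0.60 and 0.68, were not detectable. The fold change was within 0.2 of 0 in 32 of 34 members, Astl and Sohlh2 being the exceptions, where 28.6% of all genes were. The members centre on 0 by construction there. That scale moved the median of all genes to 0.27 and widened the spread against which members were judged. A fit added after the data were seen kept the other genes on library size and put only the members on the oocyte scale. It had SE of 0.06 to 0.15 for the same 31 genes and called 0 members, where 0.219% of all genes were called, with Astl at -0.24 (95% interval -0.45 to -0.02) and Zp3 at -0.15 (-0.30 to -0.00). Their adjusted p were 0.493 and 0.538 in edgeR. Of the 34 members, 8 did not overlap between the groups on the oocyte scale, where 26.2% of all tested genes did not. That 26.2% pools both directions, on a scale where the median of all genes is 0.27, and the share by direction is not given. The 8 members were Astl, Zp2 and Zp3, with KO below WT, and Nlrp14, Tle6, Tcl1, Btg4 and Ddx4, with KO above WT.

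**Figure D4:**
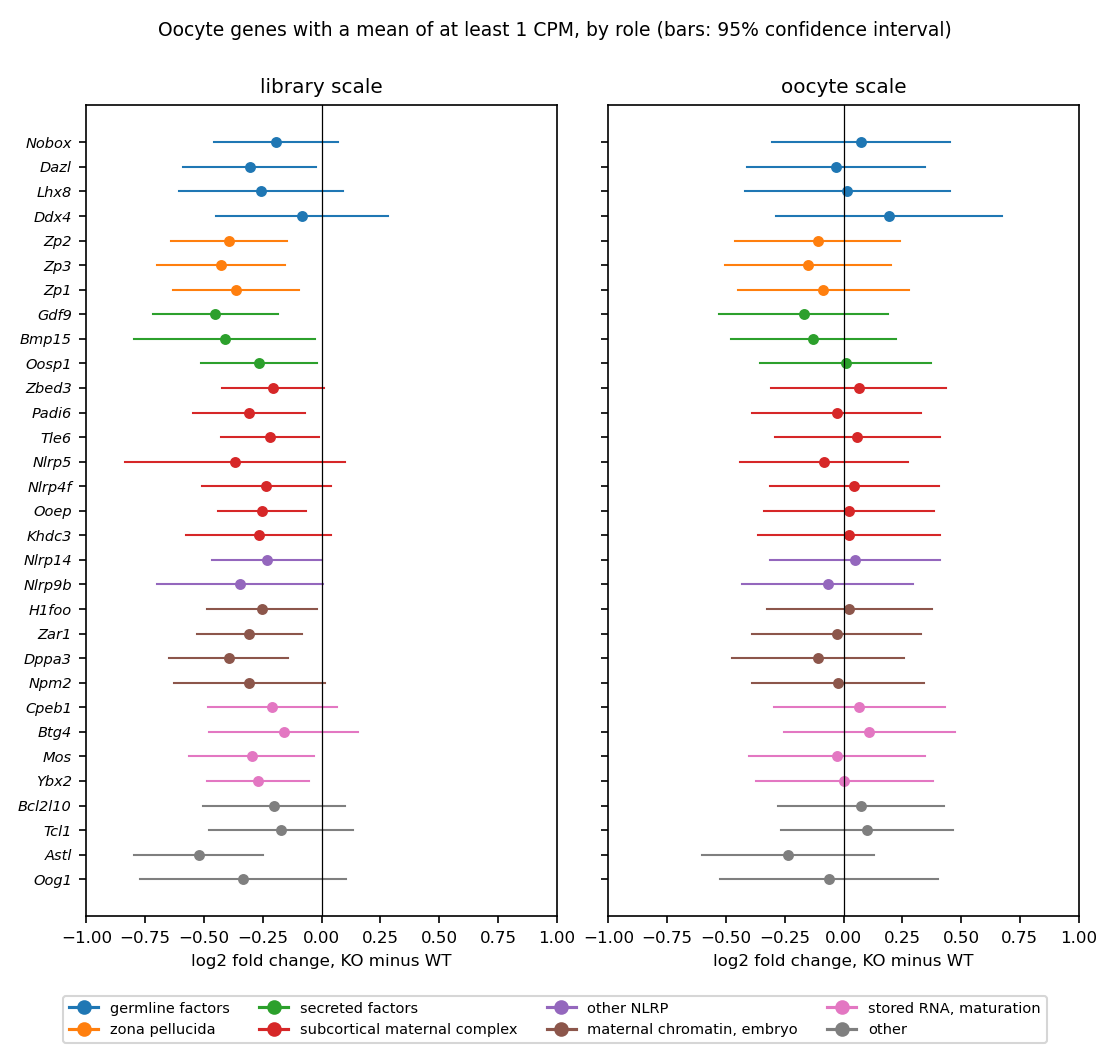
Log2 fold changes (KO minus WT, horizontal axis) of the 31 oocyte genes averaging 1 CPM or more, coloured by role, on the library scale (left panel) and the oocyte scale (right panel), with bars for 95% confidence intervals. Points lie between -0.52 and -0.08 on the library scale and between -0.24 and 0.19 on the oocyte scale.

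The roles were set against the common share by their medians. The median level of the early germline genes relative to the oocyte size factor was -0.05, 0.06 and 0.09 in KO replicates 1 to 3, against -0.03, -0.00 and -0.14 in WT replicates 1 to 3. For the zona pellucida genes it was -0.06, -0.02 and -0.05 in KO and 0.01, 0.16 and 0.05 in WT. The zona median was thus below 0 in each KO library and above it in each WT library, though Zp1 alone stood at -0.06 in WT replicate 1. The median of the subcortical maternal complex stayed between -0.03 and 0.04 in KO and between -0.01 and 0.02 in WT. Its single genes did not all do so: of the 31 genes, Padi6 varied least (SD 0.03) and Nlrp5 most (SD 0.22). The median of the secreted factors departed most, with -0.00, -0.04 and -0.08 in KO and 0.21, -0.08 and 0.12 in WT. In WT these were the values of Gdf9, and Oosp1 ran opposite to them, at -0.07, 0.12 and -0.06. RNA storage and maturation genes had -0.02, 0.01 and 0.06 in KO and -0.02, 0.00 and -0.08 in WT. The other NLRP genes had -0.09, 0.04 and 0.03 in KO and -0.03, 0.02 and 0.02 in WT. The maternal chromatin and early embryo factors had 0.04, -0.01 and -0.06 in KO and 0.01, 0.08 and 0.02 in WT. The remaining 4 members had -0.03, -0.03 and 0.13 in KO and 0.02, -0.05 and 0.03 in WT. On the oocyte scale the median log2 fold change was 0.07 for the early germline genes and -0.11 for the zona genes. It was -0.13 for the secreted factors and 0.03 for the storage and maturation genes. The early germline value was that of Figla (SE 0.31), which averaged under 1 CPM. Oosp1, of the secreted factors, stood at 0.01. With 2 to 7 genes per role and no test between roles, these medians are descriptions.

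Among the same 31 genes, the 4 with the largest SD of these deviations (0.14 to 0.22) were Nlrp5, Astl, Bmp15 and Gdf9. They stood above their share in WT replicates 1 and 3 and below it in WT replicate 2 and KO replicate 3. This pattern was not theirs alone. Npm2 had -0.06 in KO replicate 3 and 0.13, -0.20 and 0.09 in WT replicates 1 to 3. E330017A01Rik, an oocyte gene not among the members, had -0.07 in KO replicate 3 and 0.19, -0.28 and 0.08 in WT replicates 1 to 3. Nlrp5 had deviations of 0.02, 0.02 and -0.13 in KO replicates 1 to 3 and 0.28, -0.35 and 0.16 in WT replicates 1 to 3, the -0.35 being the largest of all 31 genes. For Bmp15 they were -0.00, -0.09 and -0.08 in KO and 0.22, -0.20 and 0.16 in WT. Gdf9 had -0.03, -0.04 and -0.18 in KO and 0.21, -0.08 and 0.12 in WT. Astl had -0.04, -0.05 and -0.26 in KO and 0.21, -0.04 and 0.17 in WT. Its WT replicate 2 was thus close to KO replicates 1 and 2. In WT replicate 1 the 4 had a median of 0.22, while the other 27 genes lay between -0.15 and 0.13 there. In KO replicate 3, Tcl1 and Btg4 stood highest of the 31 relative to the share, at 0.17 and 0.18, and Astl and Dppa3 lowest, at -0.26 and -0.21. Below 1 CPM, where counts are low, Figla, Sohlh1 and Sohlh2 had larger SD, of 0.23, 0.48 and 0.49. The 4 genes of largest SD, Npm2, E330017A01Rik and these extremes were picked after their values were seen, so no test was made.

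A further 40 oocyte genes, not among the 34, were listed for comparison. All 40 were tested, 0 passed over all genes (0.219% of all genes did), 14 had an unadjusted p under 0.05 (9.16% of all genes did), and 35 had a negative log2 fold change (49.1% of all genes did), with a median of -0.25. The 4 with the smallest p were Kit, Oosp2, Taf4b and Nlrp9a. Kit, a receptor that oocytes share with other cell types, had 64.7, 54.6 and 47.0 CPM in KO replicates 1 to 3, against 37.3, 38.8 and 41.9 CPM in WT replicates 1 to 3. It thus ran opposite to the oocyte genes (0.49 ± 0.11 SE, adjusted p = 0.214, edgeR), and on the oocyte scale where the median of all genes is 0.27 and 3.48% of them were called, it was the 1 gene of the 40 that was called, higher in KO (log2 fold change 0.78, adjusted p = 0.0024, edgeR). Oosp2 had 4.65, 4.54 and 4.69 CPM in KO and 5.33, 6.65 and 8.35 CPM in WT (-0.55 ± 0.17 SE, adjusted p = 0.373, edgeR). Nlrp9a (-0.38 ± 0.12 SE) and Taf4b (-0.39 ± 0.12 SE) also had KO below WT in all libraries.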

How the data were processed

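The submitters' processing notes name GRCm38, Trimmomatic (0.36), STAR (2.5.2b), featureCounts and Subread (1.5.2). As deposited, the values are raw counts per gene, in 1 file per library. The sources used here give no strand setting, annotation release or rule for reads with several matches. Symbols came from GENCODE M21 (49056 of 49315 identifiers matched).

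The test was edgeR's robust quasi-likelihood test (4.0.16, under R 4.3.3) after filterByExpr and TMM, with genotype as the only term. DESeq2 1.42.0 and limma 3.58.1 served as alternatives. The procedure was tested on simulated data. Deviations from the oocyte share used log2 of the count plus 0.5. RPKM used the exon lengths in the files.

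Members and lists were chosen with earlier results of these data known. The members given in every library were the highest in each role and, among those averaging 1 CPM or more, the 3 highest and 3 lowest fold changes on both scales. Bmp15, Nlrp5, Padi6 and Sohlh2 were added after their values were seen. Same-numbered libraries did not pair: the correlations of their deviations were -0.03, 0.10 and -0.10.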

Additional observations from a re-analysis of the deposited data

How the results depend on the processing

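The number of members called on the oocyte scale was 0 under every alternative run (other filters, DESeq2, limma-voom, the replicate block, leaving out each library, and other oocyte size factors). In all but the run scaled by other oocyte genes, the members set the scale and so centre near 0 by construction. Of all genes, these runs called from 0.199% (without WT replicate 3) to 37.6% (limma-voom). On the library scale it was 4 with no low count filter, 1 with DESeq2, 0 with the replicate block and 0 to 1 without 1 library. The median log2 fold change of the members stayed negative, from -0.35 to -0.17 without 1 library and -0.33 to -0.26 otherwise. The count of all genes called (40) was 199 with no filter, 21 with a filter at a mean of 1 CPM, 221 with DESeq2, 72 with limma-voom, 15 with the replicate block and 8 to 421 without 1 library. On the oocyte scale the count over all genes (635) was 287 with DESeq2, 6854 with limma-voom, 1968 with the replicate block, 972 with summed counts as the scale and 37 to 1309 without 1 library. Values near 0 changed sign. Ddx4 on the library scale ranged from -0.18 to 0.0126 without 1 library. H1foo on the oocyte scale ranged from -0.00434 to 0.0778 without 1 library, and was -0.0390 with limma-voom and -0.00769 with the other oocyte genes as the scale. Bcl2l10 and Nobox were -0.00689 and -0.00372 with limma-voom. The causes of these differences were not tested. At 13 to 57 counts per library, depth limits Figla, Sohlh1 and Sohlh2.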
